A study of Mus musculus with 20 samples.

Results

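Complement and the clotting cascade are plasma systems that hepatocytes supply, and 39 of their genes were followed across mouse liver tumors and livers. The genes were picked by symbol from the 50559 genes of the count tables, each encoding a complement component, clotting factor, inhibitor or fibrinolysis protein made by the liver, and all 39 passed the filter on low counts. The RNA came from 15 tumors, 5 each of Aldafermin+MYC, FGF19+MYC and sgTrp53+MYC, and from 5 livers, giving 20 libraries. All mice had the wild-type C57Bl6J genotype and, by the study's methods, were females. In the tumor groups, hepatocytes received plasmids by hydrodynamic gene transfer with the Sleeping Beauty transposase. Every tumor group carried MYC under the EF1a promoter. FGF19 is a gut hormone that restrains bile acid synthesis and was given as the human gene, Aldafermin is an engineered analog of it, and sgTrp53 is a CRISPR guide against the tumor suppressor Trp53. The labels call the livers non treated, whereas a figure legend of the study names control livers that received a plasmid for a red fluorescent protein. The treatment field of the sgTrp53+MYC tumors reads None, and their group was taken from the titles. The Aldafermin+MYC and FGF19+MYC tumors are together called hormone tumors below.

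Complement is opened by the classical, lectin or alternative pathway, which meet at C3 and end in the membrane attack complex, a pore set into the membrane of a target. Clotting runs through a chain of serine proteases to thrombin, which turns fibrinogen into fibrin, while anticoagulants restrain the chain and plasmin dissolves the clot. Hepatocytes secrete most of these proteins into the blood, and low plasma levels of clotting factors are read in the clinic as a sign of failing liver function.

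The reads assigned to genes numbered 18004977 in the shallowest and 66354724 in the deepest library. The sgTrp53+MYC libraries held at least 54042455 reads each and were deposited in a separate table, and what belongs to that table and what belongs to these tumors cannot be told apart. Reads falling on more than 1 gene made up 11.1% to 14.6% of their reads, against 3.03% to 6.30% in the other libraries. Trp53 itself lay at 46.8 ± 22.6 CPM (reads of a gene scaled to library size; mean ± SD, n = 5) in sgTrp53+MYC tumors, below both hormone groups (138 ± 32.5 and 139.5 ± 17.9) and near the livers (32.8 ± 2.98), with a log2 fold change of 1.57 between the hormone tumors and sgTrp53+MYC tumors (edgeR quasi-likelihood test, adjusted p = 0.000159). Of 16 hepatocyte marker genes, 16 were lower in both tumor comparisons with livers, and their summed level fell from at least 205029 CPM in livers to at most 33149 CPM in any tumor. Afp and Gpc3, which mark fetal liver and hepatocellular tumors, were higher than in livers, by 10.7 and 7.73 on the log2 scale in hormone tumors and by 8.26 and 6.72 in sgTrp53+MYC tumors (edgeR, adjusted p at most 3.91e-08).

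The 7 stretches of promoter below lie before genes among the 39 and hold short letters that resemble motifs of liver transcription factors. All 39 genes fell, with or without such letters, and the part of the letters in the fall was not tested. Each runs 5′ to 3′ on the strand of its gene, within 250 bases before the start of the canonical transcript in the GENCODE M39 annotation of GRCm39, the build the authors aligned to. Capitals mark the match, GTTAATNAT for HNF1 or TTGNGNAA for C/EBP, searched on both strands.
C4bp (HNF1, chr1:130589401-130589460, - strand): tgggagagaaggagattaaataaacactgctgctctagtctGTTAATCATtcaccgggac
Hc (HNF1, chr2:34951451-34951510, - strand): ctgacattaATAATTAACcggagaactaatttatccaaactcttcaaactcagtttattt
F13b (HNF1, chr1:139429347-139429406, + strand): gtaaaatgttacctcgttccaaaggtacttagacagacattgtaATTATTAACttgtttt
Plg (HNF1, chr17:12597431-12597490, + strand): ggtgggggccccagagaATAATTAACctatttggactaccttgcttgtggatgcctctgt
C3 (C/EBP, chr17:57535156-57535215, - strand): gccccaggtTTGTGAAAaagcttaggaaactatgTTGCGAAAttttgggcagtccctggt
F9 (C/EBP, chrX:59044764-59044823, + strand): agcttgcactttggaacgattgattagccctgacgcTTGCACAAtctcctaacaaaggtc
Masp1 (C/EBP, chr16:23339566-23339625, - strand): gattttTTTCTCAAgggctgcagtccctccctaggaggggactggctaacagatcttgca
The HNF1 letters were found before 5 of 39 genes (C4bp, Hc, F13b, Plg and Fga), or 12.8%, against 0.614% of 12379 promoters searched in the same way. The C/EBP letters stood before 6 of 39, or 15.4%, against 10.2% of all promoters. The HNF4 letters CAAAGTCCA were found before 0 of 39 genes, against 0.412% of all, the E-box CACGTG before 1 (2.56% against 7.82%) and TATAAA before 3 (7.69% against 7.46%). A match is a run of letters and not a known binding site. The genes with HNF1 letters had a median log2 fold change of -2.64 in hormone tumors against livers, and the 34 without them -2.55.

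All 39 genes were lower in tumors than in livers. In hormone tumors, 39 of 39 were lower with an adjusted p under 0.05 (edgeR quasi-likelihood test), where 34.5% of the 14333 genes tested were called lower and 73.7% were called in either direction. Their median log2 fold change was -2.56, against 0.096 over all genes tested. In sgTrp53+MYC tumors, 39 of 39 were lower as well, where 33% of genes were called lower, 36.9% higher and 69.9% in either direction, with a median of -3.07 against 0.071 over all genes. Both comparisons use the same 5 livers. The groups did not overlap in 38 of 39 genes in each comparison, against 25.7% and 27.4% of all genes tested that lay wholly below the livers and 54.2% and 56.2% that did not overlap in either direction. The 2 exceptions were Serpinf2 in hormone tumors and C8b in sgTrp53+MYC tumors. Together the 39 genes took 4.28% to 5.30% of the reads on genes in livers and 0.843% to 1.94% in tumors. In pieces of tissue such as these, fewer hepatocyte-like cells and less RNA per cell cannot be told apart.

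**Figure D1:**
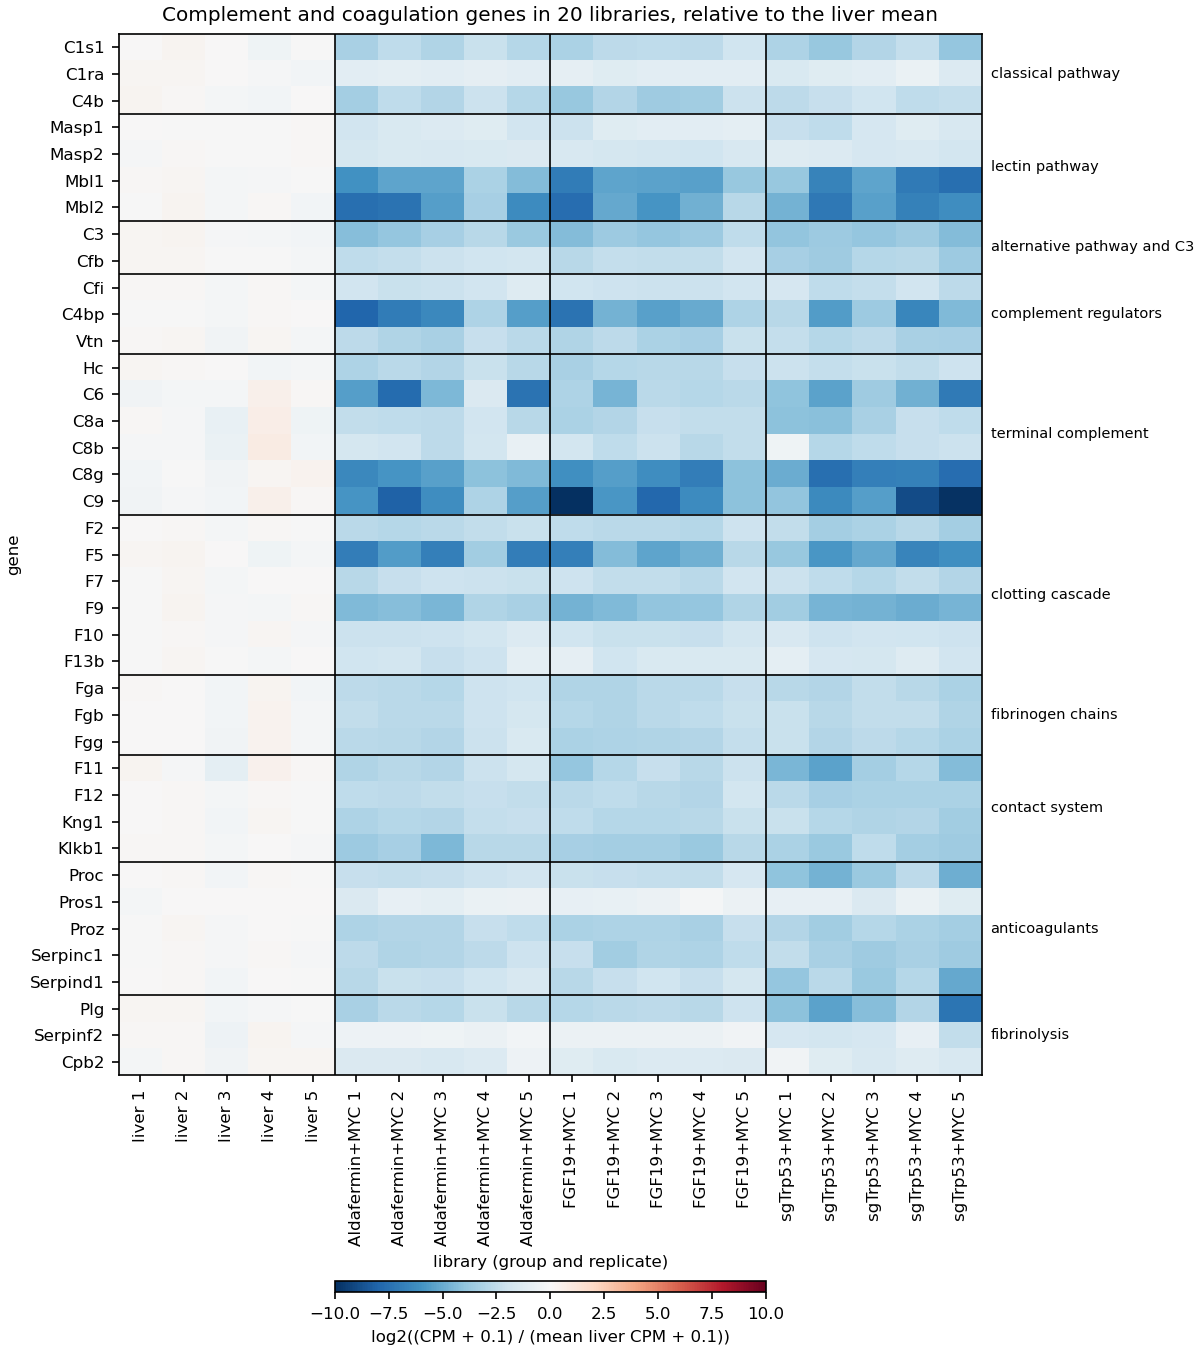
Level of each of the 39 genes (rows, grouped by role) in each of the 20 libraries (columns), as log2 of the CPM plus 0.1 over the mean liver CPM plus 0.1, with blue for values below the liver mean. The tumor columns are blue in nearly every row, palest in Serpinf2, Pros1 and C1ra and darkest in Mbl1, Mbl2, C4bp, C8g, C9 and F5.

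The size of the fall differed widely between genes. In hormone tumors it ran from -5.33 ± 0.88 (log2 fold change ± SE) in C9 to -0.50 ± 0.18 in Serpinf2, and in sgTrp53+MYC tumors from -6.36 ± 0.70 in C8g to -0.96 ± 0.17 in Pros1. The 6 lowest genes in hormone tumors were C9, C8g, Mbl2, Mbl1, C4bp and F5, which come from 4 of the roles. Exon length was taken over all annotated exons of a gene in GENCODE M39, whereas reads were counted per RefSeq gene. Ranks between genes rest on that choice, and other lengths were not tested. Set against this length, C3 was the highest of the 39 genes in livers with 3353 CPM per kilobase, followed by the fibrinogen genes Fgg, Fga and Fgb with 1894, 1873 and 1620. In hormone tumors Fga and Fgg led with 323 and 316.5 CPM per kilobase, ahead of C3 with 301, and Serpinf2 had moved from rank 14 in livers to rank 4. Mbl2 took the opposite way, from rank 11 in livers to 25 in hormone tumors and 28 in sgTrp53+MYC tumors, and C8g went from 17 to 30 and 33.

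**Figure D2:**
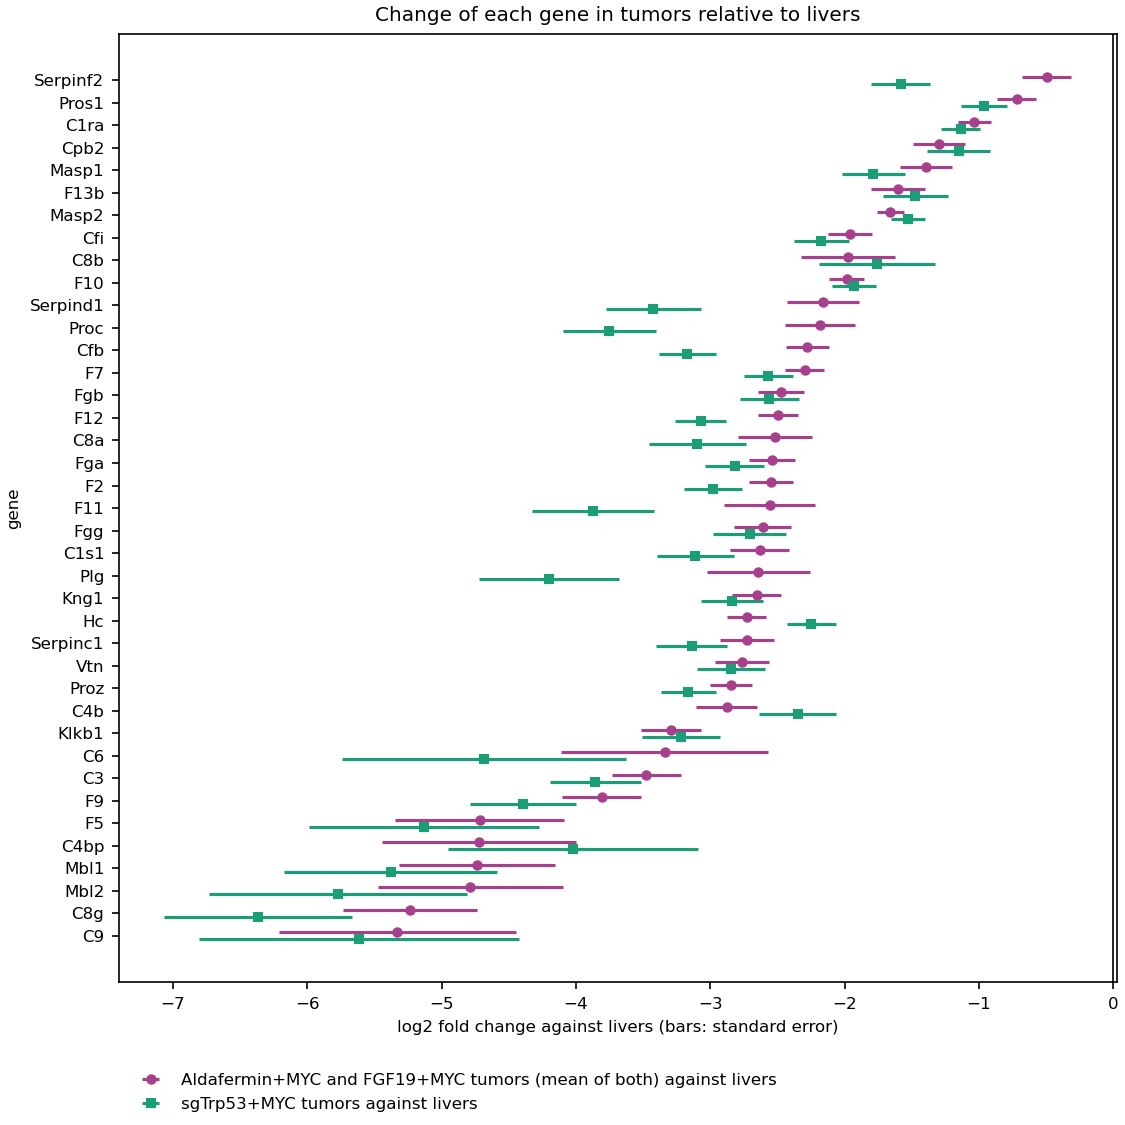
Log2 fold change of each gene against livers (horizontal axis) in hormone tumors (circles, mean of Aldafermin+MYC and FGF19+MYC) and sgTrp53+MYC tumors (squares), with standard errors as bars and genes ordered by the hormone tumors. All points lie below 0, from -6.36 in C8g to -0.50 in Serpinf2.

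The classical pathway starts from antibody and is carried by the proteases C1r and C1s, which cleave C4. C4b, the mouse gene for C4, was at 2686, 2437, 1925, 1886 and 2366 CPM in liver replicates 1 to 5, at 214, 382, 298, 518 and 317 in Aldafermin+MYC, 166, 295, 197, 206 and 503 in FGF19+MYC and 363, 458, 570.3, 384 and 440.3 in sgTrp53+MYC tumors. Every tumor lay below the lowest liver, and C4b fell by 2.88 ± 0.23 on the log2 scale in hormone tumors (adjusted p = 9.16e-10) and by 2.35 ± 0.28 in sgTrp53+MYC tumors. C1ra, which encodes the first protease of the complex, was among the 3 least reduced genes in both. It stood at 459.6, 460.4, 418, 370.1 and 342 CPM in livers, at 196, 208, 195, 221 and 192 in Aldafermin+MYC, 220.2, 173, 199, 197 and 199.8 in FGF19+MYC and 145, 177, 193, 261 and 157 in sgTrp53+MYC tumors. The groups were close to each other among tumors and 2.05-fold and 2.20-fold below livers (log2 fold changes -1.03 ± 0.12 and -1.14 ± 0.15, adjusted p = 2.87e-07 and 1.24e-06). Its partner C1s1 lies next to it on chromosome 6 (C1ra at chr6:124489364-124500402, C1s1 at chr6:124507297-124559389) and fell more, by 2.63 ± 0.22 and 3.11 ± 0.29.

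Mbl1 and Mbl2 encode mannose-binding lectins, which recognize microbial sugars, and Masp1 and Masp2 the proteases bound to them. Mbl2 was at 866, 1102, 791, 1005 and 761 CPM in livers, at 4.71, 5.31, 19.3, 90.1 and 11.3 in Aldafermin+MYC, 4.41, 25.96, 15.2, 31.6 and 129 in FGF19+MYC and 34.8, 6.17, 21.5, 8.17 and 12.3 in sgTrp53+MYC tumors. Aldafermin+MYC replicate 4 and FGF19+MYC replicate 5 stood apart from the rest of their groups, though far below every liver. By the fit Mbl2 was 27.6-fold and 54.6-fold below livers, with log2 fold changes of -4.78 ± 0.69 (edgeR adjusted p = 3.7e-06) and -5.77 ± 0.96 (adjusted p = 2.57e-05). Without Aldafermin+MYC replicate 4, Mbl2 in hormone tumors lay at -5.46. Mbl1 ranged from 1.38 to 31.6 CPM over the 15 tumors, against 247 to 314 in livers, and its log2 fold change in sgTrp53+MYC tumors went from -5.38 to -6.40 without their replicate 1. Masp1 and Masp2 fell by 1.40 ± 0.19 and 1.66 ± 0.10 in hormone tumors and by 1.79 ± 0.24 and 1.53 ± 0.13 in sgTrp53+MYC tumors. Masp2 shares 60.3% of its exon bases with Tardbp on the other strand, so its count is uncertain.

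C3, the point where the pathways meet, also had the highest level per length in livers. Its level was 20349, 20590.3, 16332, 15136 and 14485 CPM in livers, 899.6, 1187, 1764, 2609 and 1329 in Aldafermin+MYC, 859, 1414, 1214, 1379 and 2952 in FGF19+MYC and 1128, 1373, 1182, 1470.5 and 844 in sgTrp53+MYC tumors. All tumors were far under the livers, 11.1-fold in the mean of hormone tumors and 14.5-fold in sgTrp53+MYC tumors (log2 fold changes -3.48 ± 0.26 and -3.86 ± 0.34, adjusted p = 3.42e-10 and 5.88e-09). Cfb, which encodes factor B, the protease of the alternative pathway, fell by 2.28 ± 0.16 in hormone tumors and by 3.17 ± 0.21 in sgTrp53+MYC tumors. It shares 49.8% of its exon bases with Nelfe on the other strand.

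Among regulators, Vtn encodes vitronectin, an adhesive plasma protein that also blocks the attack complex, C4bp a cofactor for the breakdown of C4, and Cfi the protease factor I that carries out such breakdown. Vtn was at 4731, 4977, 3537, 5152 and 3867 CPM in livers, 743, 542, 461, 905 and 700.0 in Aldafermin+MYC, 549.7, 723, 499.9, 457 and 976 in FGF19+MYC and 838, 627, 713, 466 and 454 in sgTrp53+MYC tumors. The 3 tumor groups covered much the same range, 6.79-fold and 7.19-fold below livers. C4bp fell more, from 666, 665, 594, 742 and 712 CPM in livers to 2.67, 5.11, 7.68, 81.3 and 14.6 in Aldafermin+MYC, 3.85, 25.4, 15.8, 20.5 and 81.6 in FGF19+MYC and 99.4, 13.98, 54.9, 7.28 and 32.4 in sgTrp53+MYC tumors. Tumors differed from each other by up to 37.2-fold in C4bp, with 1 high library in each hormone group. Its log2 fold changes against livers were -4.72 ± 0.72 and -4.02 ± 0.93 (adjusted p = 8.01e-06 and 0.000742), those of Cfi -1.96 ± 0.16 and -2.18 ± 0.20. Leaving out Aldafermin+MYC replicate 4 took C4bp to -5.51, and leaving out sgTrp53+MYC replicate 1 took it to -4.64.

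The terminal components build the attack complex, and they held the lowest values of all. Hc, the mouse gene for C5, was at 1029, 981, 894, 747 and 796 CPM in livers, 107, 138, 116, 187 and 133 in Aldafermin+MYC, 96.1, 121, 132, 129.7 and 182 in FGF19+MYC and 196, 174, 192, 159 and 214 in sgTrp53+MYC tumors. C9, whose product lines the pore, was at 219, 255, 235, 398 and 305 CPM in livers, at 4.52, 0.943, 3.66, 32.7 and 6.23 in Aldafermin+MYC, 0.167, 4.81, 1.12, 3.52 and 16.03 in FGF19+MYC and 18.7, 3.41, 6.12, 0.477 and 0.1995 in sgTrp53+MYC tumors. Tumors thus spread over a 195-fold range in C9, all under the livers, with 3 of them under 0.5 CPM. Its log2 fold changes were -5.33 ± 0.88 (adjusted p = 2.03e-05) and -5.61 ± 1.19 (adjusted p = 0.000345). C8g, a small carrier-like chain of C8, was at 518, 606, 481, 726 and 804 CPM in livers, at 7.12, 10.3, 14.1, 36.6 and 28.6 in Aldafermin+MYC, 8.93, 13.7, 8.35, 5.05 and 35.6 in FGF19+MYC and 20.4, 3.32, 5.54, 5.81 and 3.04 in sgTrp53+MYC tumors. By the fit this was a drop of 37.7-fold and 82.3-fold (log2 fold changes -5.23 ± 0.50 and -6.36 ± 0.70, edgeR adjusted p = 1.32e-08 and 1.4e-07). Without sgTrp53+MYC replicate 1, C9 and C8g in these tumors were at -6.78 and -7.14, and without Aldafermin+MYC replicate 4, C9 in hormone tumors was at -5.98.

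The other chains of C8 fell far less than C8g. C8b was at 164, 167, 109.9, 308 and 146 CPM in livers, 53.8, 46.3, 28.6, 51.2 and 109.5 in Aldafermin+MYC, 49.7, 30.1, 39.9, 26.2 and 33.1 in FGF19+MYC and 133, 24.2, 30.2, 35.7 and 40.4 in sgTrp53+MYC tumors. The sgTrp53+MYC replicate 1 lay above the lowest liver, the single overlap in that comparison. C8b fell by 1.97 ± 0.35 in hormone tumors and 1.76 ± 0.43 in sgTrp53+MYC tumors, and C8a by 2.52 ± 0.28 and 3.10 ± 0.36. Without sgTrp53+MYC replicate 1, C8b in sgTrp53+MYC tumors was at -2.45. C6, which joins the complex after C5, was at 20.3, 22.9, 22.7, 36.5 and 27.6 CPM in livers, 0.486, 0.0248, 1.04, 9.499 and 0.0561 in Aldafermin+MYC, 2.902, 0.947, 3.905, 3.55 and 3.83 in FGF19+MYC and 1.48, 0.532, 2.08, 0.844 and 0.0921 in sgTrp53+MYC tumors. A single tumor, Aldafermin+MYC replicate 4, carried most of the Aldafermin+MYC mean, and C6 in hormone tumors against livers went from -3.34 ± 0.77 to -4.55 without it.

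Of the clotting cascade, F2 encodes prothrombin, F7, F9 and F10 are proteases ahead of it, F5 encodes the cofactor of factor X, and F13b carries the enzyme that crosslinks fibrin. F2 was at 3652, 3779.7, 3128, 3741 and 3387 CPM in livers, 557, 491, 544, 657 and 772 in Aldafermin+MYC, 618, 548, 543, 481 and 833 in FGF19+MYC and 654, 342, 394, 525 and 330.0 in sgTrp53+MYC tumors, so that every tumor lay below every liver. Its mean was 5.85-fold and 7.88-fold below livers (log2 fold changes -2.55 ± 0.17 and -2.98 ± 0.21, adjusted p = 5.78e-11 and 3.49e-10). The F5 gene was at 968, 1044, 914, 640.2 and 774 CPM in livers, 6.97, 17.96, 7.52, 78.9 and 7.02 in Aldafermin+MYC, 7.65, 42.02, 22.4, 31.2 and 127 in FGF19+MYC and 62.3, 15.01, 25.1, 9.01 and 12.5 in sgTrp53+MYC tumors. Against livers this gene fell by 4.72 ± 0.63 and by 5.13 ± 0.86, and it lay at -5.34 without Aldafermin+MYC replicate 4 and at -5.81 without sgTrp53+MYC replicate 1. F9 followed with -3.81 ± 0.29 and -4.40 ± 0.40. F7, F10 and F13b fell by 2.30 ± 0.14, 1.98 ± 0.13 and 1.60 ± 0.20 in hormone tumors and by 2.57 ± 0.18, 1.93 ± 0.16 and 1.47 ± 0.24 in sgTrp53+MYC tumors.

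The 3 fibrinogen chains, which are joined into 1 protein and lie together on chromosome 3 (chr3:82915030-82957170), all fell. Fgb was at 6377, 6230.3, 5131, 7934 and 5294 CPM in livers, 1107, 962, 965, 1441 and 1809 in Aldafermin+MYC, 845, 784, 937, 1062 and 1321 in FGF19+MYC and 1292, 900.5, 1116, 1152 and 787 in sgTrp53+MYC tumors. Fgg was at 4725, 4632, 3664, 5925 and 4015 CPM in livers, 705, 664, 609, 1023 and 1589 in Aldafermin+MYC, 504, 529, 578, 606 and 866 in FGF19+MYC and 992, 607, 761, 629 and 525 in sgTrp53+MYC tumors. In both genes liver replicate 4 was the highest liver and Aldafermin+MYC replicate 5 the highest tumor. Log2 fold changes of Fga, Fgb and Fgg were -2.54 ± 0.17, -2.47 ± 0.17 and -2.61 ± 0.21 in hormone tumors and -2.82 ± 0.22, -2.56 ± 0.22 and -2.71 ± 0.27 in sgTrp53+MYC tumors.

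The contact system starts clotting on charged surfaces. Kng1 encodes high molecular weight kininogen, Klkb1 plasma prekallikrein, and F11 and F12 the proteases factor XI and factor XII. Kng1 was at 4173, 4479, 3402, 4609 and 3931 CPM in livers, 486, 586, 537, 804 and 813 in Aldafermin+MYC, 712, 559, 569, 589 and 887 in FGF19+MYC and 894, 582, 509, 526 and 365 in sgTrp53+MYC tumors. Its tumor groups overlapped widely, 6.30-fold and 7.16-fold below livers. Klkb1 had log2 fold changes of -3.29 ± 0.23 and -3.22 ± 0.29. Its neighbour on chromosome 8, F11 (F11 at chr8:45693697-45715177, Klkb1 at chr8:45719726-45747900), fell by 2.56 ± 0.34 and 3.87 ± 0.45, and F12 by 2.49 ± 0.15 and 3.07 ± 0.19.

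All 5 anticoagulants fell as well, Pros1 least. Serpinc1 encodes antithrombin and was at 4144, 4507, 3857, 4451 and 3953 CPM in livers, 694, 507, 540.0, 676 and 974 in Aldafermin+MYC, 839, 377, 523, 490.3 and 709 in FGF19+MYC and 777, 441, 355, 447 and 356 in sgTrp53+MYC tumors. It fell by 2.73 ± 0.20 and 3.14 ± 0.26, with 34.4% of its exon bases shared with Zbtb37. Pros1 encodes protein S, the cofactor of activated protein C, and is also made outside the liver. Its level was 59.4, 69.2, 68.03, 70.7 and 69.4 CPM in livers, 24.2, 38.2, 34.1, 43.6 and 43.9 in Aldafermin+MYC, 38.8, 40.6, 44.7, 59.1 and 44.04 in FGF19+MYC and 38.9, 37.4, 24.8, 43.00 and 29.1 in sgTrp53+MYC tumors. FGF19+MYC replicate 4 came close to the lowest liver, and the fold drop below livers was 1.65 and 1.95 (log2 fold changes -0.72 ± 0.14 and -0.96 ± 0.17, adjusted p = 0.000166 and 5.72e-05). Proz, the cofactor of an inhibitor of factor X, fell by 2.85 ± 0.16 and 3.16 ± 0.21. Counting the 7 members whose proteins need vitamin K (F2, F7, F9, F10, Proc, Pros1 and Proz), 7 of 7 were lower in both comparisons, with medians of -2.30 and -2.98.

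Fibrinolysis holds the gene nearest to its liver level in hormone tumors. Serpinf2, the main inhibitor of plasmin, was at 1769, 1775, 1189, 1997 and 1501 CPM in livers, 1159.6, 1156, 1241, 1069.8 and 1371 in Aldafermin+MYC, 1081, 1087, 1123, 1109.7 and 1262 in FGF19+MYC and 514, 462, 526, 939 and 303 in sgTrp53+MYC tumors. Hormone tumors reached into the range of the livers, whose replicate 3 was low, and their mean was 70.8% of the liver mean (log2 fold change -0.50, 95% interval -0.88 to -0.11, adjusted p = 0.0206). That call was lost without liver replicate 4 (-0.43, adjusted p = 0.0603). In sgTrp53+MYC tumors Serpinf2 lay below every liver and at 33.4% of the liver mean (-1.58 ± 0.22, adjusted p = 3.45e-06). Plg encodes plasminogen, the precursor of plasmin, and was at 5154, 5246, 3869, 4274 and 4363 CPM in livers, 489, 723, 634, 991 and 672 in Aldafermin+MYC, 628, 689.8, 752, 682 and 1091 in FGF19+MYC and 263, 112, 241, 603 and 28.96 in sgTrp53+MYC tumors. By the fit Plg was 6.24-fold and 18.4-fold below livers (log2 fold changes -2.64 ± 0.38 and -4.20 ± 0.52), the latter at -4.83 without sgTrp53+MYC replicate 4. Cpb2, whose product protects fibrin from plasmin, was at 381, 465, 344, 515 and 494 CPM in livers, 164, 164, 144, 168 and 302 in Aldafermin+MYC, 190.4, 155, 171, 171 and 162 in FGF19+MYC and 337, 189.7, 143, 176 and 143 in sgTrp53+MYC tumors. No tumor reached the lowest liver, though sgTrp53+MYC replicate 1 came close, and Cpb2 fell by 1.30 ± 0.19 and 1.15 ± 0.23.

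Scaling bears on the least reduced genes. Without composition factors, that is by library totals alone, the median of all genes in hormone tumors against livers shifted up by 0.84 and that in sgTrp53+MYC tumors by 0.88, and 36 of 39 genes were still called lower in each comparison. Pros1 and Serpinf2 then lay at 0.13 and 0.35 in hormone tumors against livers, above 0 and not called.

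Hormone tumors and sgTrp53+MYC tumors differed in 8 of the 39 genes. Cfb, F11, F12, Proc, Serpind1, Plg and Serpinf2 were higher in hormone tumors and Hc was lower (edgeR quasi-likelihood test, adjusted p under 0.05), where 23.7% of all genes tested were called, 11.6% higher and 12.1% lower. The share of 8 in 39 is close to that background. The median of the 39 genes was 0.32, against -0.023 over all genes. The 7 higher genes were 6 of the 21 clotting members and 1 of the 18 complement members, a split that was not tested.

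Proc, the gene of the anticoagulant protein C, had the largest log2 fold change of the 8 genes. Its level was 177, 175, 178, 214 and 236 CPM in Aldafermin+MYC and 193, 183, 170.0, 164 and 274 in FGF19+MYC tumors, 54.3, 33.3, 66.8, 147 and 29.8 in sgTrp53+MYC tumors and 922, 991, 732, 947 and 868 in livers. Every hormone tumor lay above every sgTrp53+MYC tumor, with a mean 2.96-fold higher and a log2 fold change of 1.57 ± 0.29 (adjusted p = 0.000845). Serpinf2, with the values given above, was the other gene without overlap, at 2.12-fold higher (1.09 ± 0.20, adjusted p = 0.000738). Of all genes tested, 5.7% had no overlap between the hormone tumors and sgTrp53+MYC tumors. The highest sgTrp53+MYC tumor was replicate 4 in both genes, and in Plg too.

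Plg was 2.94-fold higher in hormone tumors (1.56 ± 0.43, adjusted p = 0.0130), and its sgTrp53+MYC tumors were spread from 29.0 to 603 CPM. Leaving out sgTrp53+MYC replicate 4 moved it to 2.19. Serpind1, which encodes heparin cofactor II, an inhibitor of thrombin, was 2.40-fold higher (1.26 ± 0.29, adjusted p = 0.00473), with 137.5 to 310.0 CPM in hormone tumors against 28.2 to 148. F11 was 2.49-fold higher (1.31 ± 0.38, adjusted p = 0.0164), with 6.03 to 26.3 CPM against 2.11 to 12.3. F12 and Cfb were 1.49-fold and 1.86-fold higher (0.58 ± 0.16 and 0.89 ± 0.18, adjusted p = 0.0129 and 0.00133). Both overlapped, F12 at sgTrp53+MYC replicate 1 and Cfb at the lowest FGF19+MYC tumor.

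Hc went the other way, with 96.1 to 187 CPM in hormone tumors against 159 to 214 in sgTrp53+MYC tumors, a log2 fold change of -0.48 ± 0.15 (adjusted p = 0.0252). C4b (-0.53 ± 0.23, adjusted p = 0.105) and C4bp (-0.70 ± 0.70, adjusted p = 0.502) were the other genes at the low end, and neither passed. At the high end C6 had 1.35 ± 0.85 without passing (adjusted p = 0.269). Without Aldafermin+MYC replicate 4, C6 was at 0.13 and C4bp at -1.48, and without sgTrp53+MYC replicate 1, C4bp was at -0.088. The fibrinogen chains differed by 0.28, 0.088 and 0.098, and the lowest and highest bounds of their 95% intervals were -0.36 and 0.65.

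**Figure D3:**
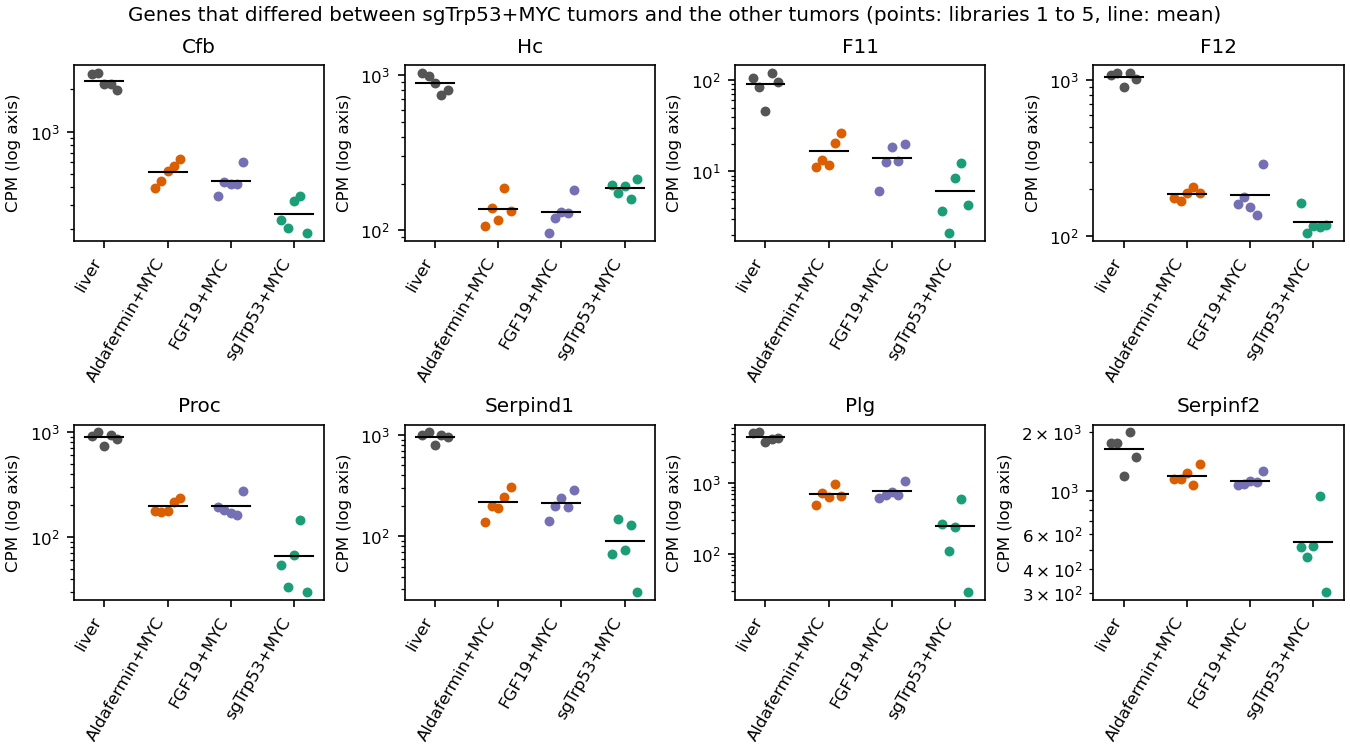
CPM (log axis) of the 8 genes called between hormone and sgTrp53+MYC tumors, with 1 point per library and a line at the group mean. All tumors lie below the livers except in Serpinf2, and only Proc and Serpinf2 have sgTrp53+MYC points wholly apart from the hormone tumors.

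The 7 higher genes stayed called whichever single library was left out, and leaving out some sgTrp53+MYC tumors added others. The count was 12 without replicate 1, adding C8g, F2, F9, Mbl1 and Serpinc1, and 10 without replicate 4, adding C1s1, C8a and Masp1. Hc was no longer called without replicate 3 or without replicate 5, and C4b was called lower without FGF19+MYC replicate 5 (-0.70). With offsets for GC content and exon length, Hc (-0.29) and F12 (0.32) were not called, whereas C4b was called lower. F9, Masp1 and Pros1 were then added to the higher genes, which made 9 higher and 1 lower. The larger share of reads on more than 1 gene in the sgTrp53+MYC table touches genes that overlap others. Of 9 members sharing over 5% of their exon bases with another counted gene, 3 were called higher (Cfb, Plg and Serpinf2; median 0.64), against 4 higher and 1 lower among the other 30 (median 0.28). The part of this overlap in the result was not tested.

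Markers of other cells moved in the same comparison. Of 12 macrophage and Kupffer cell markers, 8 were higher in hormone tumors than in sgTrp53+MYC tumors and 0 lower, and their summed level was 428 to 1209 CPM in hormone tumors, 221 to 347 in sgTrp53+MYC tumors and 590.0 to 970 in livers. Of 7 cholangiocyte markers tested, 4 were lower in hormone tumors, among them Krt19 and Krt7, which sat under 1 CPM there. In sgTrp53+MYC tumors Krt19 and Krt7 had means of 39.3 and 16.3 CPM with highest single tumors of 191 and 80.9, so that 1 tumor made up most of each mean. The summed level of the 8 listed genes was 143 to 231 CPM against 107 to 985. Of 16 hepatocyte markers, 4 were higher (Alb, Apoa1, Apob and Serpina1c) and Cps1 was lower, with summed levels of 10723 to 33149 CPM in hormone tumors against 5367 to 14525 in sgTrp53+MYC tumors. Their part in the differences of the 8 genes was not tested.

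In none of the 39 genes was a difference detected when Aldafermin+MYC was set against FGF19+MYC. By edgeR's quasi-likelihood test 0 of 39 were called, where 0% of all genes tested were called, and 1 of the 39 had an unadjusted p under 0.05. DESeq2 and edgeR's likelihood ratio test called 96 and 59 of all genes, and 0 of the 39. The median log2 fold change was 0.064, against 0.022 over all genes, and 26 of 39 values were above 0. No member was without overlap between the 2 groups, against 1.46% of all genes.

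The intervals set the size of difference that could have been missed. Fgg had the smallest p, with a log2 fold change of 0.57 (95% interval 0.043 to 1.11, adjusted p = 0.636). C9 and C8b were the other genes at the high end, at 0.88 (-1.24 to 2.99) and 0.69 (-0.19 to 1.58). The F5 gene, Mbl2 and C6 were at the low end, at -0.97 (-2.49 to 0.56), -0.66 (-2.31 to 0.98) and -0.47 (-2.43 to 1.48). Single libraries moved these values. Without Aldafermin+MYC replicate 4, C9 was at -0.44, Mbl2 at -2.02, the F5 gene at -2.22 and C6 at -2.90 (adjusted p = 0.129 for C6, none called by edgeR). Without FGF19+MYC replicate 5, C9 was at 1.95, Mbl2 at 0.43 and the F5 gene at -0.13. Intervals were narrower for other genes, for example F2 at -0.0010 (-0.42 to 0.41), Cfb at 0.21 (-0.20 to 0.61), C3 at -0.0054 (-0.64 to 0.63) and Masp2 at 0.18 (-0.082 to 0.44).

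**Figure D4:**
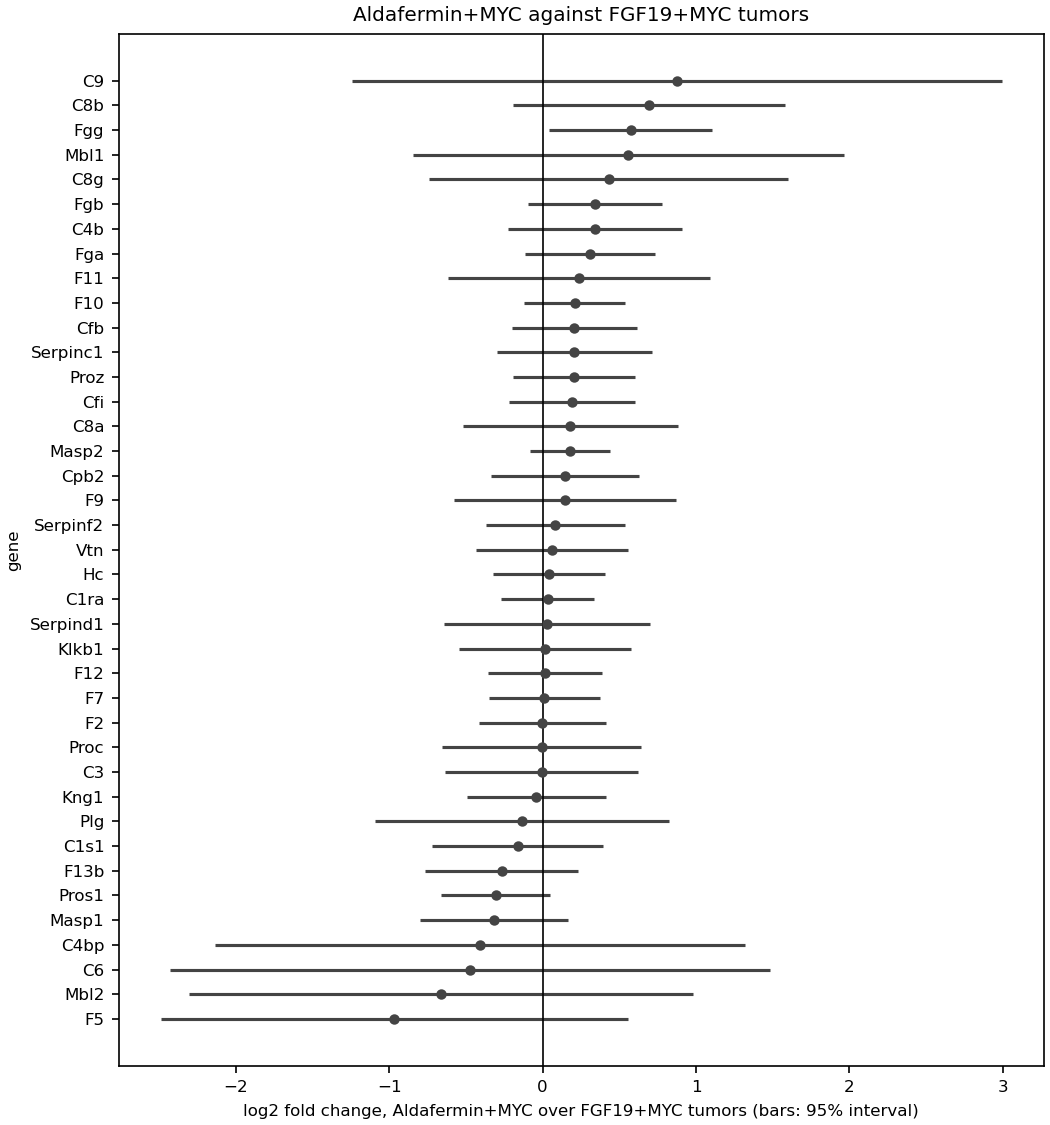
Log2 fold change of each gene in Aldafermin+MYC over FGF19+MYC tumors (horizontal axis) with its 95% interval as a bar, genes ordered by value. The intervals of 38 genes cross 0, that of Fgg runs from 0.043 to 1.11, and the widest belong to C9, C6, C4bp, Mbl2 and F5.

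Within each tumor group, 1 library carried more of the strongly reduced genes. Cyp2e1, a cytochrome of hepatocytes around the central vein, was highest in Aldafermin+MYC replicate 4, FGF19+MYC replicate 5 and sgTrp53+MYC replicate 1, at 9.61%, 15.7% and 8.05% of the liver mean, whereas the other 12 tumors held 0.00399% to 2.55% (median 0.326%). The order was not particular to Cyp2e1, as Alb was also highest of its group in these libraries, at 8.84%, 10.6% and 3.36% (median 2.77% in the other 12). Cyp2f2, another hepatocyte marker, was at 4.73%, 6.90% and 1.59% in them (median 0.139%), but not the highest in all 3 groups. In each of the 6 lowest genes, the same 3 libraries were the highest of their groups. Mbl2 stood at 9.95%, 14.3% and 3.85% of the liver mean in them, with a median of 1.30% in the other 12, and C4bp at 12.04%, 12.07% and 14.7%, with a median of 2.11%. The F5 gene was at 9.09%, 14.6% and 7.17% (median 1.59% in the others), C9 at 11.6%, 5.67% and 6.61% (median 1.23%), and Mbl1 at 11.3%, 7.36% and 7.31% (median 2.35%). C8g was closest to the others, with 5.84%, 5.67% and 3.25% against a median of 1.23%.

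Vtn, F9 and F12 shared this order, which makes 9 of 39 genes, while the 3 genes least reduced in hormone tumors did not. Serpinf2 was at 65.0%, 76.6% and 31.2% of the liver mean in the 3 libraries and at a median of 66.7% in the others, Pros1 at 64.7%, 65.4% and 57.8% with a median of 57.2%, and C1ra at 53.9%, 48.7% and 35.4% with a median of 47.7%. FGF19+MYC replicate 5 was the highest of its group in 31 of 39 genes, sgTrp53+MYC replicate 1 in 21 and Aldafermin+MYC replicate 4 in 19. For these counts and for the 9 of 39, shares over all genes tested were not computed. Without the 3 libraries, a choice made after seeing the data, all 39 genes stayed lower than in livers in both comparisons. The lowest ones then lay lower still in hormone tumors, with C9 at -6.51, Mbl2 at -6.01, C4bp at -5.92 and the F5 gene at -5.76. The libraries left out were the highest of their groups in these genes, so lower values follow from the choice. Between hormone and sgTrp53+MYC tumors, 10 genes were then higher and 2 lower, and F11 was not among them (1.05, adjusted p = 0.0748). The part of Cyp2e1-expressing or other hepatocyte-like tissue in these values was not tested.

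**Figure D5:**
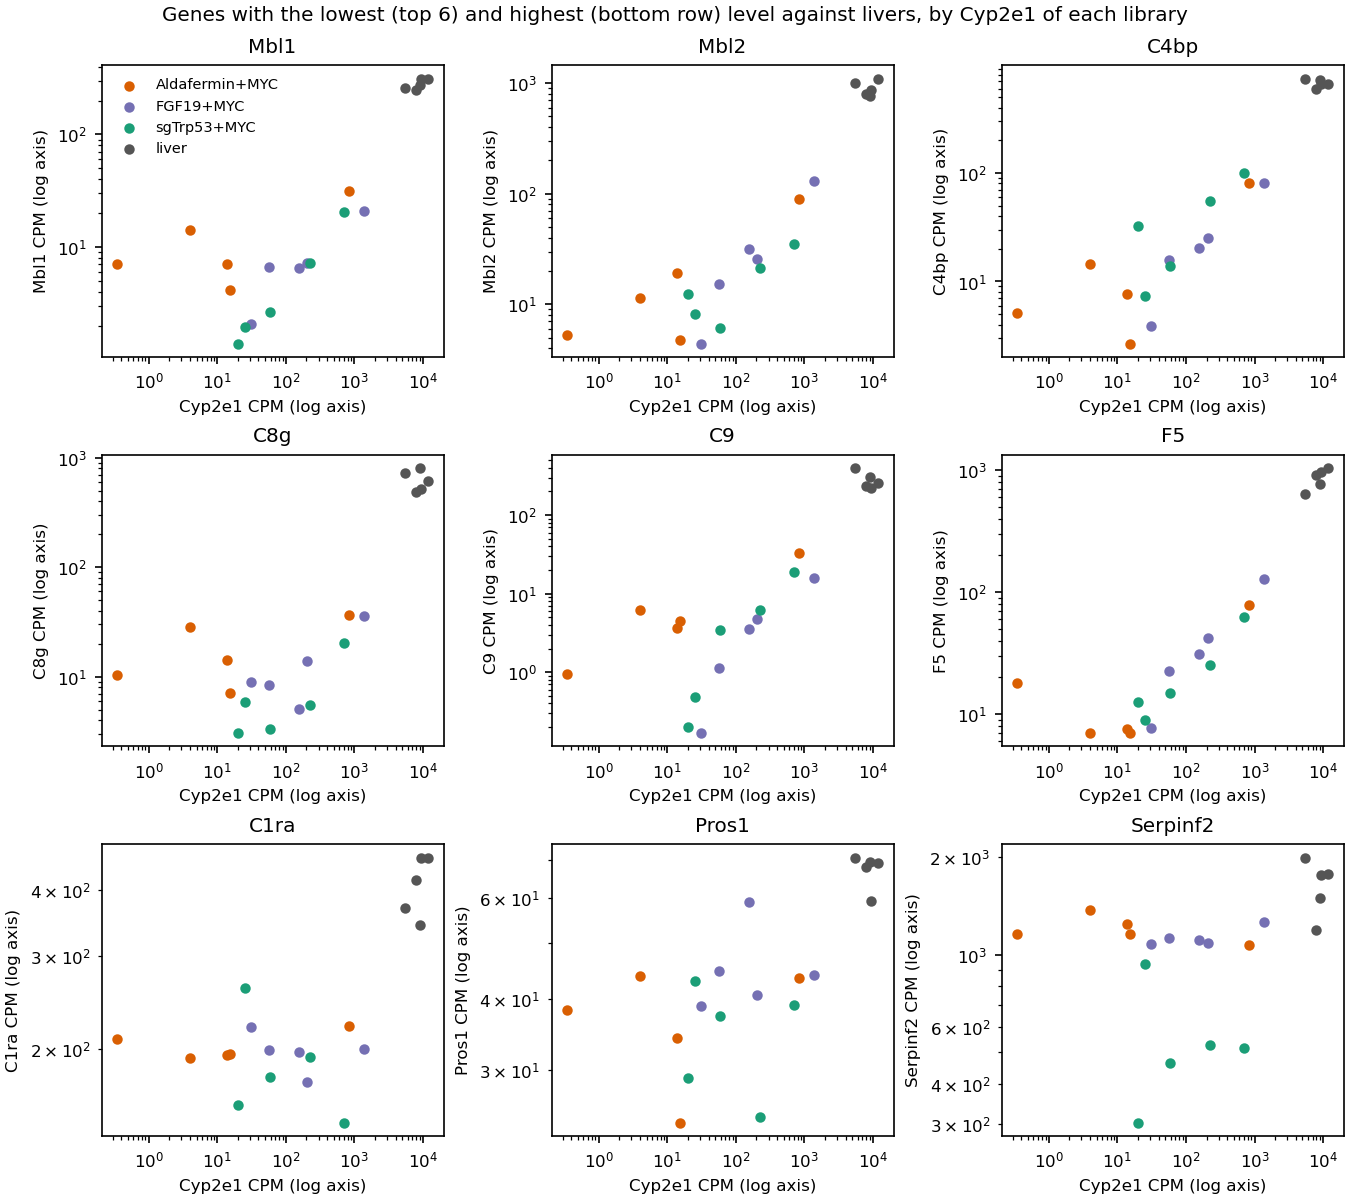
CPM of 9 genes (vertical, log axis) against CPM of Cyp2e1 (horizontal, log axis) in the 20 libraries, colored by group. The upper rows hold the 6 lowest genes in hormone tumors against livers, and the bottom row the 3 highest. In the upper rows the tumor of highest Cyp2e1 in each group is also its highest for the gene, and in the bottom row this does not hold in all 3 groups.

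Other genes of both systems gave the setting. Of 17 tested complement genes outside the 39, 0 were higher and 13 lower in hormone tumors than in livers (median -2.43), and 16 were lower in sgTrp53+MYC tumors (median -2.93). C1rl, a C1r-like protease, and Cpn2, a subunit of the carboxypeptidase that trims complement peptides, had the smallest adjusted p in hormone tumors, at -2.48 ± 0.13 and -2.91 ± 0.15. Against sgTrp53+MYC tumors 8 of the 17 were higher in hormone tumors, led by Fcna, a ficolin of the lectin pathway (1.85 ± 0.21), and Cfp, properdin (1.30 ± 0.19). C1qa, C1qb and C1qc, which macrophages make, were 3 of these 8 and are also macrophage markers here. Which cells carried Fcna and Cfp was not tested.

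Of 16 tested genes of clotting and fibrinolysis outside the 39, 8 were lower and 4 higher in hormone tumors than in livers (median -0.70), and 7 lower and 4 higher in sgTrp53+MYC tumors (median -0.999). By smallest adjusted p, the lower ones were headed in hormone tumors by F8 and Kng2 at -2.66 ± 0.25 and -3.12 ± 0.31, and in sgTrp53+MYC tumors by Habp2 and Serpina10 at -1.60 ± 0.17 and -1.88 ± 0.23. Between tumor types, Serpina10 was higher in hormone tumors (0.60 ± 0.20), and F3 and Plat were lower. Plat in sgTrp53+MYC tumors had a mean of 19.1 CPM, most of it from 1 tumor of 83.3 CPM, and its direction without that tumor was not tested. Of 7 genes of the vitamin K cycle and of factor export, 5 were lower than in livers in hormone tumors and 6 in sgTrp53+MYC tumors (medians -0.80 and -1.48). Ggcx, the carboxylase that vitamin K serves, fell by 0.80 ± 0.18 and 1.48 ± 0.21, and was higher by 0.67 ± 0.19 in hormone than in sgTrp53+MYC tumors.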

How the data were processed

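RNA of 20 mouse tissue pieces, 5 per group, was sequenced from a stranded poly(A) library kit. By the labels and the study's methods, the authors made fastq files with bcl2fastq 2.20.0.422, aligned reads with HISAT2 to mm39 and counted them per RefSeq gene with htseq-count, and deposited raw counts in 2 tables, with the sgTrp53+MYC tumors in the second. The 5 summary lines of htseq-count were left out. Counting strand was not given in the sources used here.

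Groups came from the labels. The members and gene lists were chosen with earlier results of these data known. The filter on low counts, 1 CPM or more in no fewer than 5 libraries, left 14333 of 50559 genes. With R 4.3.3 and edgeR 4.0.16, one quasi-likelihood model with TMM scaling covered all 4 groups without a replicate block. It compared Aldafermin+MYC with FGF19+MYC, the mean of both with sgTrp53+MYC and with livers, and sgTrp53+MYC with livers. Benjamini-Hochberg adjustment ran over all genes tested, with a threshold of 0.05. CPM are TMM-scaled. Values per library were given for the 3 highest and 3 lowest members of each comparison by log2 fold change and for the member of highest mean CPM in each role, and genes of other lists were named as the 2 of smallest adjusted p per comparison. Other names, given where a count was 5 or fewer or a contrast stood out, were chosen after their values were seen. The names of the higher genes of the other clotting list against livers are not reported here. By the study, each sequenced tumor was from a different mouse. Its replicates, livers included, are described as biological.

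Alternatives were DESeq2 1.42.0, other scalings, no filter, a likelihood ratio test, GC and length offsets, a replicate block and leaving out libraries. Libraries held between 18004977 and 66354724 reads on genes, and intervals are at 95%. Scripts were tested on simulated data. No pairing by replicate number was seen. Same-number correlations ran from -0.333 to 0.333, with 6 of 30 over 0.1, and different-number correlations from -0.553 to 0.669, with 36 of 120. No 2 libraries were duplicates. Promoters came from GRCm39 with GENCODE M39, which matched 96.6% of genes tested. Figures used matplotlib 3.10.9.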

Additional observations from a re-analysis of the deposited data

Results flagged for a closer look

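Single libraries stood far from the other 4 of their group in 32 of 156 groups of 5 CPM values. The rule used, on the gap to the nearest library relative to the range, gives about 1 in 20, or 7.8, for normally distributed values. CPM were not logged and the genes share the same libraries, so 7.8 is no strict baseline. The share over all genes was not computed. FGF19+MYC replicate 5 was the high library in 12 of the 32, with 20.7 CPM for Mbl1, 129 for Mbl2, 2952 for C3, 81.6 for C4bp, 35.6 for C8g and 127 for the F5 gene. It also stood high at 866 CPM for Fgg, 290.4 for F12, 274 for Proc, 144 for Proz, 1091 for Plg and 1262 for Serpinf2. The sgTrp53+MYC replicate 1 was high in 7, at 133 CPM for C8b, 20.4 for C8g, 25.7 for F9, 277 for F10, 164 for F12, 777 for Serpinc1 and 337 for Cpb2. Aldafermin+MYC replicate 4 was high in 6, at 90.1 CPM for Mbl2, 81.3 for C4bp, 9.499 for C6, 67.6 for C8a, 32.7 for C9 and 78.9 for the F5 gene. Aldafermin+MYC replicate 5 was high at 442 CPM for Cfi, 152 for F13b and 302 for Cpb2. FGF19+MYC replicate 4 was high for Pros1 at 59.1 CPM and FGF19+MYC replicate 1 low for Masp1 at 38.5 CPM. Among livers, replicate 4 was high for C8b at 308 CPM and replicate 1 low for Pros1 at 59.4 CPM.

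The fall against livers differed between hormone tumors and sgTrp53+MYC tumors in 8 genes, tested as the difference itself (edgeR quasi-likelihood test, adjusted p under 0.05). On the log2 scale, hormone minus sgTrp53+MYC, it was 0.89 for Cfb, 1.31 for F11, 0.58 for F12, 1.57 for Proc, 1.26 for Serpind1, 1.56 for Plg, 1.09 for Serpinf2 and -0.48 for Hc.

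Outside the gene counts, reads that htseq-count could not give to a single gene made up 12.9% of reads on average in the sgTrp53+MYC libraries, above the livers.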

How the results depend on the processing

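All 39 genes were lower than in livers in both comparisons under 31 alternatives, in direction and call, with few exceptions. These were library totals alone, C4bp under DESeq2, and Serpinf2 in hormone tumors without the filter on low counts (-0.32, edgeR adjusted p = 0.197) and without liver replicate 4 (-0.43). Library totals alone gave 36 of 39 lower in each, turned Pros1 and Serpinf2 in hormone tumors to 0.13 and 0.35, left C1ra (-0.19 and -0.25 in the 2 comparisons), and Cpb2 and Pros1 in sgTrp53+MYC tumors (-0.30 and -0.09), uncalled, and moved the medians to -1.71 and -2.19. Without the filter the sgTrp53+MYC median was -2.79. Between hormone and sgTrp53+MYC tumors the number higher ran from 7 to 12 and the number lower from 0 to 2 when 1 library was left out, and it was 12 higher without sgTrp53+MYC replicates 1 and 4 and 2 lower without the 3 tumors of highest Cyp2e1, both chosen after seeing the data. F12 was not called without the filter (0.46, adjusted p = 0.0624). In Aldafermin+MYC against FGF19+MYC, 0 of 39 were called under any alternative, and C9 ranged from -0.44 to 1.95 and Mbl2 from -2.02 to 0.43 when 1 library was left out. With the replicate block the counts were 7 higher and 1 lower, 39 of 39 lower in both liver comparisons, and 0. C6 in hormone tumors against livers went to -4.09 with it. DESeq2 gave no adjusted p for C4bp. The cause of these changes was not tested. What depth alone limits was not tested.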

Other observations

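Most genes of a list of transcription factors of hepatocytes and the acute phase were reduced with the 39 genes. The list also holds the cytokine receptor genes Il6ra and Il6st. Of 16 tested, 13 were lower than in livers in both tumor comparisons and 0 higher (edgeR quasi-likelihood test, adjusted p under 0.05), with medians of -1.25 in hormone and -1.18 in sgTrp53+MYC tumors. Cebpa, which drives hepatocyte genes, fell by 2.23 and 1.87 on the log2 scale, and Nr1h4, the bile acid receptor FXR, fell by 2.31 in hormone tumors. Nr1h4 and Nr5a2 were lower in hormone than in sgTrp53+MYC tumors, by -0.90 and -0.50.

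Of 9 complement receptors and membrane regulators tested, 2 were higher and 4 lower in hormone tumors than in livers, with Cd59a, which shields cells from the attack complex, at -3.32. In sgTrp53+MYC tumors 1 was higher and 4 lower, and C5ar2 was higher in hormone than in sgTrp53+MYC tumors by 1.15. Of 10 endothelial markers, 6 and 7 were lower than in livers in hormone and sgTrp53+MYC tumors, and Eng and Stab1 were higher in hormone tumors than in sgTrp53+MYC tumors by 0.97 and 1.15. Of 11 stellate cell markers, 4 were higher in both comparisons with livers, and 5 and 4 were lower. Few genes of other blood cells passed the filter on low counts, 4 of 11 for T and NK cells, 1 of 6 for B cells, 3 of 7 for neutrophils and 3 of 7 for platelets. Of those tested in hormone tumors against livers, 1 T or NK cell marker and 1 neutrophil marker were higher, and 1 B cell and 1 platelet marker were lower, and in sgTrp53+MYC tumors 2 T or NK cell markers were higher, and 1 B cell and 2 platelet markers lower. Of 6 genes of fetal liver and tumors, 5 were higher and 1 lower than in livers in both comparisons.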
